A study of Mus musculus with 15 samples.

Results

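The cytosolic ribosomal proteins were followed through a study of septic mouse hearts. A gene was taken as a member when its symbol was Rpl or Rps and a digit, or Rplp0, Rplp1, Rplp2 or Rpsa, and when at least 1 probe set on the arrays was paired with that gene and no other. Symbols of the S6 kinases (Rps6k) and of pseudogenes (-ps) were left out. The rule gave 48 of the 12393 genes measured, on 100 probe sets: 26 proteins of the large subunit (Rpl, with Rplp0 and Rplp2) and 22 of the small subunit (Rps, with Rpsa). Rplp1, Rpl3, Rpl5 and Rps27a had no probe set of their own and were not analysed here. The symbol Rps15a-ps6, a numbered pseudogene, was also left out; read by the letter of the rule it would have been a further member, with a wild-type CLP difference of -0.24 ± 0.72 (SE; limma, adjusted p = 0.901).

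The study hybridised total RNA of 15 whole hearts, 1 array per heart, taken 48 h after surgery, in 5 groups of 3. Polymicrobial sepsis came from CLP surgery (caecal ligation and perforation): the blind gut was tied off at its midpoint, punctured, and a little faecal material was pressed out. In sham mice it was only mobilised and put back. All mice had isoflurane anaesthesia, buprenorphine and subcutaneous saline, and ketamine and xylazine with a pressure catheter in the carotid artery before the heart was removed. Wild-type mice (C57/BL6) gave a sham group and septic groups labelled Min Dep and Max Dep; the labels do not say what these codes rank or how hearts were assigned to them. Mice of the congenic strain B6.129P2-Nos2tm1Lau/J lack the inducible nitric oxide synthase (iNOS, Nos2) in every cell type, and gave a sham and a CLP group with no such division. Age and sex are not stated in the labels used here, and p-values measure the spread between hearts of these groups only.

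Ribosomal proteins form, with ribosomal RNA, the small subunit that decodes mRNA and the large subunit that joins amino acids. A cell keeps their amounts in proportion, and unassembled copies are degraded or, for a few such as Rpl11, bind the p53 regulator Mdm2. Their mRNAs are among the most abundant in most tissues and many start with a run of pyrimidines, the 5′ terminal oligopyrimidine tract, through which mTOR signalling and Larp1 control their translation. In the heart, growth of the muscle cells is accompanied by making more ribosomes. Some ribosomal proteins have a paralog used in particular tissues, such as Rpl3l, the striated-muscle counterpart of Rpl3.

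Transcription start windows are shown for chosen members. They include the 4 that passed the test (Rpl6, Rpl35, Rps28, Rpl4), and Rplp2 and Rpl38, which came close to it. Also shown are Rps6, the protein that S6 kinase phosphorylates, and the muscle paralog Rpl3l. Rpl27a was picked because it has the longest tract printed here, and not for its difference between groups. Each line holds 25 bases before and 25 from the first annotated start on, 5′ to 3′ along the gene's strand, in the RefSeq annotation of GRCm38.p6. Capitals mark a C followed by at least 4 pyrimidines that begins within 5 bases of the start; a line without capitals has no such run there.
Rpl6, chr5:121204476-121204525, plus strand: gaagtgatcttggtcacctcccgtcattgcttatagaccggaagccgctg
Rpl35, chr2:39005107-39005156, minus strand: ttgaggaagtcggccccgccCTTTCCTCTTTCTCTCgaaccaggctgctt
Rps28, chr17:33824538-33824587, minus strand: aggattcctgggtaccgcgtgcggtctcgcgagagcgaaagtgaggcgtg
Rpl4, chr9:64173362-64173411, plus strand: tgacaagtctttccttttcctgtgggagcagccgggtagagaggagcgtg
Rplp2, chr7:141447626-141447675, plus strand: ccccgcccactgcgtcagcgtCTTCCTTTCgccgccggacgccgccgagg
Rpl38, chr11:114668555-114668604, plus strand: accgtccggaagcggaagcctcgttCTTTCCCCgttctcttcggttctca
Rps6, chr4:86857343-86857392, minus strand: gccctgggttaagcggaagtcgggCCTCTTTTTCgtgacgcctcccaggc
Rpl27a, chr7:109519170-109519219, plus strand: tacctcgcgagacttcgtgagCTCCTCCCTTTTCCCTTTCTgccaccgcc
Rpl3l, chr17:24727801-24727850, plus strand: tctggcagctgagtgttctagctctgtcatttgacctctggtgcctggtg

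A promoter window was matched for 42 of the 48 members. The tract was found in 20 of these 42 (47.6%), against 23.4% of the 9883 genes of the arrays that had a window. Of the 4 members that passed the test, Rpl35 had the tract, and in Rpl6, Rps28 and Rpl4 none was found within 5 bases of the annotated start. The search depends on where the start is annotated. A run that begins farther away, as in the printed Rpl4 window, was not counted, so a member without a match may still carry a tract. The median septic difference in wild type, described below, was 1.10 in the 20 members with a tract, of which 17 lay above 0, and 1.50 in the 22 without, of which 20 did. Searched on both strands over 250 bases before to 50 after the start, CCGGAAGT, the ETS-type motif, was found in 10 of 42 members (23.8%, against 7.23% of all genes). AAGATGGC, a core of the YY1 motif, was found in 4 (9.52%, against 4.39%), and TATAAA in 6 (14.3%, against 11.9%). These are matches of letters and describe the windows only.

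The wild-type table holds a standardised score: undoing a linear step per array brings the SD of each probe set to 1 and its mean to 0. For a gene with 1 probe set, a difference therefore tells how far the groups lie apart against its own spread over the arrays. That spread includes the differences between groups. Where several probe sets are averaged and disagree, their mean is less spread and its difference comes out smaller. A difference is no fold change. Levels of different genes cannot be compared, nor strictly the sizes of differences of genes with 1 and with several probe sets. The knockout values behave as log differences centred for each probe set, with the base not given, and come from another array model, so genotype cannot be told apart from table and array model. A gene's value is the mean of its probe sets. The knockout array CLP replicate 1 lay between the other 2 CLP arrays in 76% of probe sets and in 40 of the 48 members, against 32.8% to 34.4% of probe sets for the sham arrays; it is given beside the results and was left out of the knockout test. Nos2 itself had wild-type values of 1.40, -0.30 and -0.91 after sham and -0.98 to 1.78 after CLP, and in the knockout table -0.72 to 1.06 after sham and -1.43 to 0.57 after CLP; since each table is centred on its own arrays, the knockout cannot be checked from them.

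The first comparison asked how septic wild-type hearts differed from sham hearts. As means of their probe sets, most ribosomal protein mRNAs lay higher after CLP, and more so in the Max Dep than in the Min Dep group. No member passed the test of Max Dep against Min Dep. Over the 30 plain member probe sets, those designed against a single transcript, the septic median was 0.33, with 18 above 0. For Max Dep minus Min Dep the plain median was -0.18, with 14 above 0. Averaged over the 48 members, the 3 sham arrays stood at -0.81, -0.62 and -0.68, the Min Dep arrays at -0.06, -0.11 and 0.26, and the Max Dep arrays at 0.51, 0.70 and 0.94. No array of a group overlapped with another group. The mean was -0.70 ± 0.09 for sham, 0.03 ± 0.20 for Min Dep and 0.72 ± 0.21 for Max Dep (SD over 3 arrays). Averaged over all 12393 genes the arrays stood between -0.04 and 0.04. Both subunits showed the same order. The median large-subunit member ran from -0.96, -0.67 and -0.92 in sham to 0.66, 0.91 and 1.06 in Max Dep arrays. For the small subunit it ran from -0.76, -0.65 and -0.90 to 0.30, 0.77 and 1.01.

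**Figure D1:**
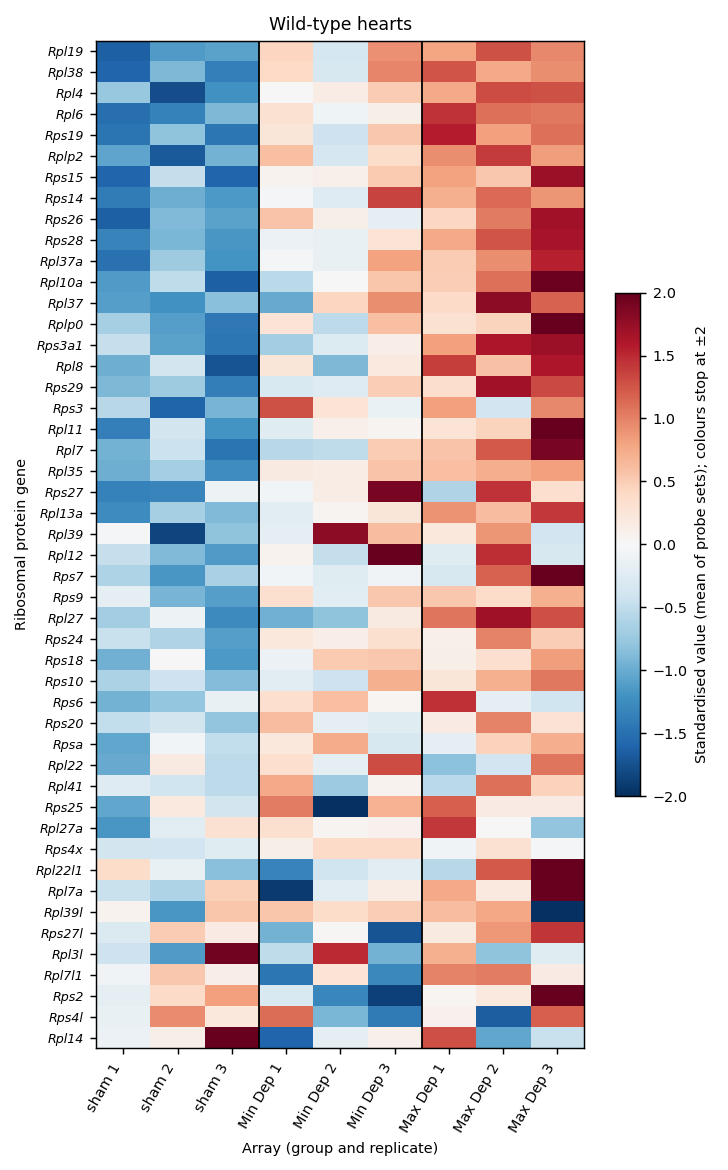
Standardised value of each of the 48 members (rows) in each of the 9 wild-type arrays (columns, by group), as colour that stops at ±2. Sham columns are mostly on the low side and Max Dep columns mostly on the high side, with Rpl14, Rps4l, Rps2 and several paralogs outside this pattern.

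Of the 48 members, 42 had a septic difference above 0 (87.5%, against 50.8% of all genes), with a median of 1.33 standardised units against 0.02 over all genes. At an adjusted p under 0.05, 4 members rose (8.33%) and 0 fell, where 0.339% of all genes were called higher and 0.379% lower (limma, unmoderated statistics, Benjamini-Hochberg over all genes). At an unadjusted p under 0.05 the counts were 29 higher (60.4%, against 9.23% of all genes) and 0 lower (against 9.38%). In 22 members (45.8%, against 5.89% of all genes) each of the 6 septic arrays lay above each sham array, and in 0 below (against 6.11%). The 48 members ranged from -1.03 for Rpl14 to 1.95 for Rpl19. By subunit, the median difference was 1.45 in the large subunit, with 23 of 26 members above 0, and 1.10 in the small subunit, with 19 of 22. The 4 calls depend on the test and on single arrays: moderated statistics called 0 members, and so did the fit without any 1 of the arrays, except that 6 (Rpl6, Rpl19, Rpl35, Rpl38, Rplp2 and Rps19) were called without Min Dep replicate 2. The median stayed between 1.19 and 1.42 over the same 9 fits.

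Rpl6, a protein on the outer face of the large subunit, stood at -1.50, -1.36 and -0.90 in sham arrays, 0.30, -0.09 and 0.11 in Min Dep and 1.44, 1.10 and 1.05 in Max Dep arrays. The groups did not overlap and followed one another from sham through Min Dep to Max Dep. Its septic difference was 1.91 ± 0.17 (SE; limma, adjusted p = 0.0276). Rpl35, which sits where the new protein chain leaves the ribosome, stood at -0.97, -0.68 and -1.24 in sham, 0.17, 0.14 and 0.56 in Min Dep and 0.60, 0.73 and 0.81 in Max Dep arrays. Here Min Dep replicate 3 came near the lowest Max Dep array, and sham lay clearly below both. Its difference was 1.47 ± 0.16 (limma, adjusted p = 0.0307). Rpl35 is the mean of 6 probe sets that ranged from 0.07 to 1.88; without those that can match other transcripts it was 0.82, with an adjusted p of 0.173 (limma).

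Rps28, a small protein at the mRNA exit of the small subunit, stood at -1.34, -0.91 and -1.16 in sham, -0.12, -0.15 and 0.27 in Min Dep and 0.75, 1.26 and 1.65 in Max Dep arrays. All 3 groups were apart, and its 3 probe sets lay close together, from 1.68 to 1.82. The difference was 1.74 ± 0.22 (limma, adjusted p = 0.0443). The call was lost with the median of its probe sets (limma, adjusted p = 0.0549) and without types _x_at and _s_at (limma, adjusted p = 0.0543). Rpl4, a core protein with a loop that lines the exit tunnel, stood at -0.76, -1.77 and -1.21 in sham, 0.00, 0.14 and 0.51 in Min Dep and 0.76, 1.30 and 1.27 in Max Dep arrays. Again no array overlapped with another group. The difference was 1.91 ± 0.26 (limma, adjusted p = 0.0498), close to the threshold, and with each array centred on its median the adjusted p was 0.0521.

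The stalk of the large subunit, which recruits elongation factors, is made of Rplp0 and the acidic proteins Rplp1 and Rplp2. Rplp2 stood at -1.06, -1.68 and -0.94 in sham, 0.61, -0.33 and 0.37 in Min Dep and 0.92, 1.39 and 0.84 in Max Dep arrays. Its groups did not overlap, and the difference of 1.86 ± 0.28 just missed the threshold (limma, adjusted p = 0.0543). Rplp0, the stalk base and a common reference gene for PCR, stood at -0.66, -1.11 and -1.43 in sham, 0.28, -0.52 and 0.60 in Min Dep and 0.31, 0.45 and 2.13 in Max Dep arrays. Sham lay below both septic groups, which overlapped with each other, and Max Dep replicate 3 stood highest. The difference was 1.60 ± 0.50 (limma, adjusted p = 0.176).

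Other large-subunit members with non-overlapping sham and septic arrays were Rpl19 (1.95 ± 0.31), Rpl38 (1.95 ± 0.32), Rpl37a (1.73 ± 0.34), Rpl11 (1.50 ± 0.55) and Rpl13a (1.44 ± 0.23), none past the adjusted threshold. Rpl19 contributes to a bridge between the subunits, Rpl38 is known for its part in translating Hox mRNAs, and Rpl13a for silencing certain inflammatory mRNAs once it leaves the ribosome. Rpl38 stood at -1.59, -0.89 and -1.37 in sham, 0.40, -0.32 and 0.97 in Min Dep and 1.26, 0.75 and 0.93 in Max Dep arrays, so that sham lay below both septic groups, which overlapped. Its adjusted p was 0.057 (limma), and 0.0435 with the array step undone. Rpl11 stood at -1.37, -0.37 and -1.20 in sham, -0.23, 0.10 and 0.05 in Min Dep and 0.27, 0.44 and 2.46 in Max Dep arrays, so its order over groups held in each array while Max Dep replicate 3 alone gave much of the spread.

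Among small-subunit proteins, Rps19, mutated in Diamond-Blackfan anaemia, stood at -1.46, -0.81 and -1.44 in sham, 0.24, -0.42 and 0.54 in Min Dep and 1.57, 0.82 and 1.10 in Max Dep arrays. The 3 groups did not overlap, with a septic difference of 1.87 ± 0.29 (limma, adjusted p = 0.0543). Rps15 (1.85 ± 0.38), Rps14 (1.82 ± 0.37), Rps26 (1.80 ± 0.34) and Rps3 (1.50 ± 0.47) also had septic arrays that all lay above sham, without passing the adjusted threshold. Rps6 stood at -0.94, -0.78 and -0.15 in sham, 0.34, 0.60 and 0.04 in Min Dep and 1.46, -0.19 and -0.39 in Max Dep arrays. Min Dep lay above sham, whereas Max Dep overlapped with sham and only replicate 1 was high. Its difference was 0.93 ± 0.46 (limma, adjusted p = 0.353). Rpsa, also known as the laminin receptor, had a difference of 0.80 ± 0.35 (limma, adjusted p = 0.303). Its sham array 2 at -0.05 overlapped with Min Dep replicate 3 at -0.32 and Max Dep replicate 1 at -0.19. The Rpsa mean joins 2 plain probe sets that disagreed, at 1.78 ± 0.27 (limma, adjusted p = 0.041 over all probe sets) and -0.19 ± 0.83.

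Paralogs of core ribosomal proteins lay mostly outside the common pattern. Rpl3l stood at -0.41, -1.13 and 1.93 in sham, -0.50, 1.49 and -0.94 in Min Dep and 0.70, -0.81 and -0.24 in Max Dep arrays, so that each group spanned low and high values. Its septic difference was -0.18 ± 0.90 (limma, adjusted p = 0.94). Rps27l, a p53-responsive paralog of Rps27, stood at -0.30, 0.51 and 0.17 in sham, -0.95, 0.02 and -1.73 in Min Dep and 0.18, 0.86 and 1.43 in Max Dep arrays. The Max Dep arrays all lay above the Min Dep arrays, and sham lay between and overlapped with both. Rps27 itself stood at -1.35, -1.32 and -0.11 in sham, -0.06, 0.15 and 1.89 in Min Dep and -0.61, 1.45 and 0.33 in Max Dep arrays, so that Min Dep lay just above sham and Max Dep overlapped with both. Its septic difference was 1.45 ± 0.67 (limma, adjusted p = 0.318), beside -0.16 ± 0.47 for Rps27l.

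Rpl7l1, a paralog of Rpl7 that takes part in assembling the large subunit, stood at -0.07, 0.54 and 0.14 in sham, -1.44, 0.27 and -1.28 in Min Dep and 1.00, 1.03 and 0.16 in Max Dep arrays. Min Dep and Max Dep overlapped through replicate 2 of the former and replicate 3 of the latter. Rpl7 had a septic difference of 1.47 ± 0.42 and Rpl7l1 of -0.25 ± 0.45. In the pair of Rpl22 and Rpl22l1 the differences were 0.67 ± 0.56 and 0.37 ± 0.68. For Rpl39 and Rpl39l they were 1.38 ± 0.61 and 0.28 ± 0.77, and for Rps4x and Rps4l 0.51 ± 0.11 and -0.59 ± 0.83. In each of these 5 pairs with both partners measured the parent gene lay higher than the paralog in this pooled septic difference. In Max Dep hearts alone Rpl22 (0.40) lay below Rpl22l1 (1.19). In the knockout Rpl7 (0.17), Rpl22 (0.67) and Rps27 (-1.57) lay below Rpl7l1 (1.76), Rpl22l1 (1.07) and Rps27l (0.17). Rpl39 and Rps4x stayed above their paralogs there. The wild-type probe sets of Rpl7l1 (-1.35 and 0.85), Rps4x (1.66 and -0.63) and Rpl22 (1.37 and -0.03) lay on both sides of 0. Differences between partners were not tested, and none of these 10 genes passed the adjusted threshold. The lowest of all members was Rpl14, at -0.12, 0.12 and 2.15 in sham, -1.58, -0.20 and 0.11 in Min Dep and 1.29, -1.04 and -0.45 in Max Dep arrays, where 1 sham array alone stood high.

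Each septic group was next set against the same 3 sham arrays. In Max Dep hearts 3 members rose: Rpl6 by 2.45 ± 0.20 (limma, adjusted p = 0.0309), Rpl35 by 1.68 ± 0.18 (limma, adjusted p = 0.0375) and Rps28 by 2.36 ± 0.26 (limma, adjusted p = 0.0403). This was 6.25% of the members, against 0.29% of all genes called higher, and 0 members fell against 0.161%. Members above 0 numbered 44, (91.7%, against 46.8% of all genes), with a median of 1.41 against -0.09 over all genes. In 31 (64.6%, against 13.8% of all genes) the 3 Max Dep arrays lay above the 3 sham arrays, and in 0 below (against 12.7%). The shift was not seen over the 30 plain member probe sets, those designed against a single transcript, whose median was 0.04 with 16 above 0. The median was 2.15 over type _a_at and 2.18 over type _x_at (the types are described below). Without types _x_at and _s_at, Rpl35 was at 0.47 (limma, adjusted p = 0.475) and Rps28 at 2.47 (limma, adjusted p = 0.0557). The plain probe set of Rpl35 lay at -0.83. At an unadjusted p under 0.05, 30 members were higher (62.5%, against 8.87% of all genes) and 0 lower (against 7.84%). Without sham replicate 3 or without Min Dep replicate 2 only Rpl6 was still called, without any other array 0 members were, and moderated statistics also called 0.

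In Min Dep hearts 0 members passed the threshold (limma, adjusted), with 18 higher at an unadjusted p under 0.05 (37.5%, against 7.65% of all genes) and 0 lower (against 8.77%). Of all genes 0.0161% were called higher there and 0.0403% lower. The smallest adjusted p was that of Rpl35, at 1.26 ± 0.18 (limma, adjusted p = 0.0682; with the array step undone 1.33 and adjusted p = 0.0471). Members above 0 numbered 40 (83.3%, against 54.5% of all genes), with a median of 0.95 against 0.12. In 24 (50%, against 10.9% of all genes) all Min Dep arrays lay above all sham arrays. Rps2, a protein at the mRNA entry of the small subunit, was the 1 member whose Min Dep arrays all lay below sham (2.08%, against 12.4% of all genes). It stood at -0.18, 0.39 and 0.82 in sham, -0.31, -1.30 and -1.87 in Min Dep and 0.04, 0.20 and 2.16 in Max Dep arrays.

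**Figure D2:**
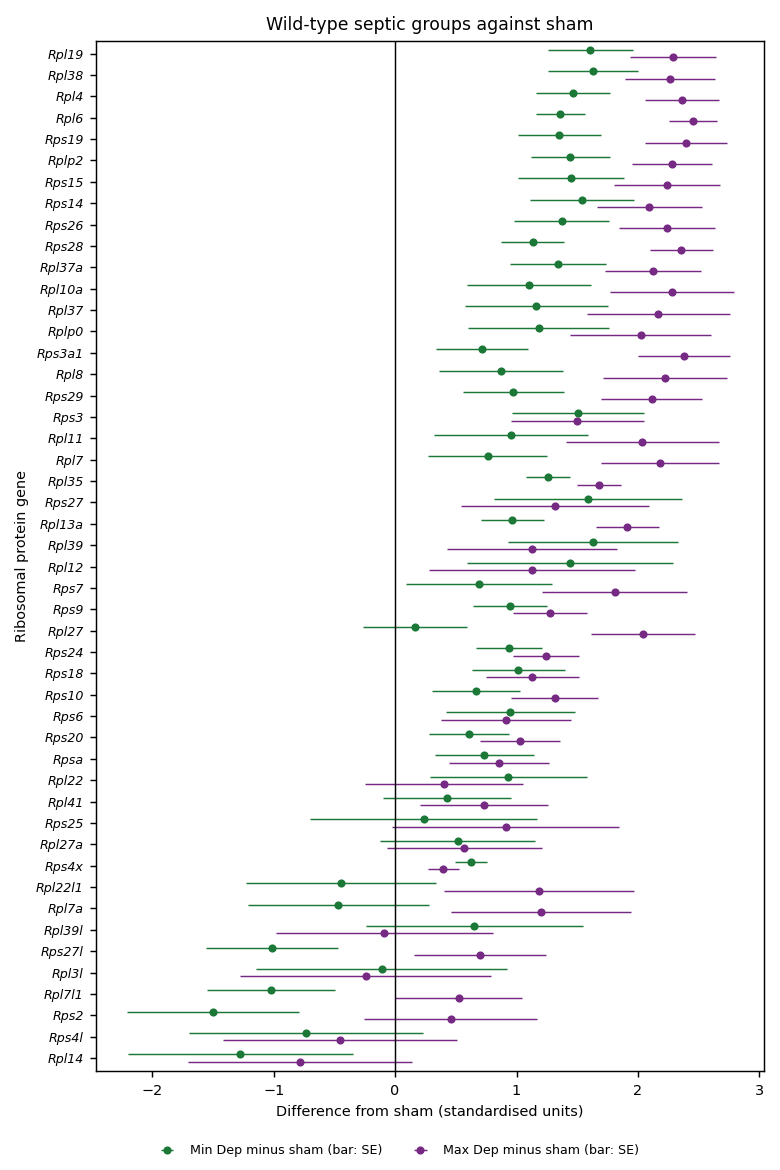
Difference from sham of the Min Dep (green) and Max Dep (purple) groups for the 48 members, in standardised units; points are differences and bars 1 SE of the fit. Most members lie right of 0 in both groups, and Rps2, Rps27l, Rpl7l1, Rpl7a and Rpl22l1 lie below 0 in Min Dep and above 0 in Max Dep hearts; both groups share the sham arrays.

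Set directly against each other, Max Dep exceeded Min Dep in 39 of 48 members (81.2%, against 46.7% of all genes), with a median difference of 0.73 against -0.08 over all genes. No member passed the threshold, and 0% of all genes did (limma, adjusted); at an unadjusted p under 0.05, 14 members were higher (29.2%, against 5.21%) and 0 lower (against 4.6%). The smallest adjusted p was that of Rpl6, at 1.09 ± 0.20 (limma, adjusted p = 0.3065). In 16 members (33.3%, against 7.89% of all genes) the 3 Max Dep arrays lay above the 3 Min Dep arrays, and in 0 below (against 7.43%). The largest differences were those of Rps2 (1.96 ± 0.71), Rpl27 (1.88 ± 0.43) and Rps27l (1.71 ± 0.54). Rpl27 stood at -0.70, -0.10 and -1.28 in sham, -0.96, -0.80 and 0.18 in Min Dep and 1.08, 1.70 and 1.28 in Max Dep arrays, so that Min Dep overlapped with sham and Max Dep stood apart. Undoing the array step brought the median down to 0.44. Over the 30 plain member probe sets the direction turned, with a median of -0.18 and 14 above 0, whereas it was 1.06 over type _a_at and 0.98 over type _x_at. All probe sets of type _x_at on the arrays had a median of 0.45, with 63.7% above 0.

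The order sham, Min Dep, Max Dep held in each array, with no overlap between neighbouring groups, in 9 members (18.8%, against 0.775% of all genes): Rpl4, Rpl6, Rpl11, Rpl13a, Rpl35, Rplp2, Rps15, Rps19 and Rps28. Group means rose in that order in 32 members (66.7%, against 18.7%). For Max Dep minus Min Dep, the plain probe set of Rpl35 ran the other way, at -1.81, and that of Rps15 was at 0.84. Rps3a1 came close to the first set, at -0.46, -1.08 and -1.44 in sham, -0.69, -0.28 and 0.14 in Min Dep and 0.83, 1.62 and 1.72 in Max Dep arrays; only its first sham and first Min Dep arrays crossed. Rps3, which lines the mRNA entry, had almost equal differences from sham in the 2 septic groups, 1.50 ± 0.55 in Max Dep and 1.51 ± 0.55 in Min Dep hearts.

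Members moved together from array to array. Over the 9 wild-type arrays the Pearson correlation of the 1128 member pairs had a median of 0.50 and a mean of 0.43, and 82.3% of pairs lay above 0. The mean over all genes was 0.002. Standardising each array holds that all-gene mean near 0, so it does not tell how strongly other related genes move together. Within the 6 septic arrays the median was 0.33, with 71% of pairs above 0. These are descriptions: the pairs share arrays and, in part, probe sequences. Each member was also set against the mean of the other members. The median of these correlations was 0.83 and 18 exceeded 0.9, led by Rps28 at 0.996, Rpl13a at 0.97 and Rpl37a at 0.97. Rpl14, Rpl3l, Rps4l and Rpl39l were below 0.

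Probe sets differ in what they can match, and many ribosomal protein genes have processed pseudogenes and near-identical copies, so a member's value may include RNA of other loci. On these arrays a plain suffix marks probe sets designed against a single transcript, _a_at those for alternative transcripts of a gene, and _s_at and _x_at those that can match transcripts of other genes. In septic wild-type hearts the median difference was 0.33 over the 30 plain member probe sets, 1.60 over the 28 of type _a_at, 0.84 over the 2 of type _s_at and 1.66 over the 40 of type _x_at. The medians over all probe sets of these types were 0.01, -0.16, 0.22 and 0.56. Differences above 0 were found in 18 of 30, 27 of 28, 1 of 2 and 35 of 40 member probe sets. Of the 10 members with a plain and another type, the plain mean was the lower in 9, Rpl22 being the other; in the knockout it was lower in 7.

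Of the 23 members with several probe sets, 10 had probe sets on both sides of 0 in septic wild-type hearts. Rps10 ranged from -1.14 to 1.62 over 6 probe sets, the plain one being the negative one, Rps20 from -0.63 to 1.89, Rps24 from -0.28 to 2.01 and Rps9 from -0.37 to 1.99. For Rps28 and Rps15 the probe sets lay within 0.13 of each other. Tested one by one, 13 member probe sets in 13 genes rose (limma, adjusted over 20380 probe sets, of which 0.976% were called higher). These included the single probe sets of Rpl19, Rpl38, Rplp2 and Rps19, with adjusted p-values of 0.0418, 0.0438, 0.041 and 0.0418 (limma), so that their calls differed with the set of tests alone. In Max Dep hearts 9 did, against 0.594%. A further 102 probe sets were paired with several genes including a ribosomal protein symbol and were not members; 87 of these lay above 0, with a median of 1.49.

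**Figure D3:**
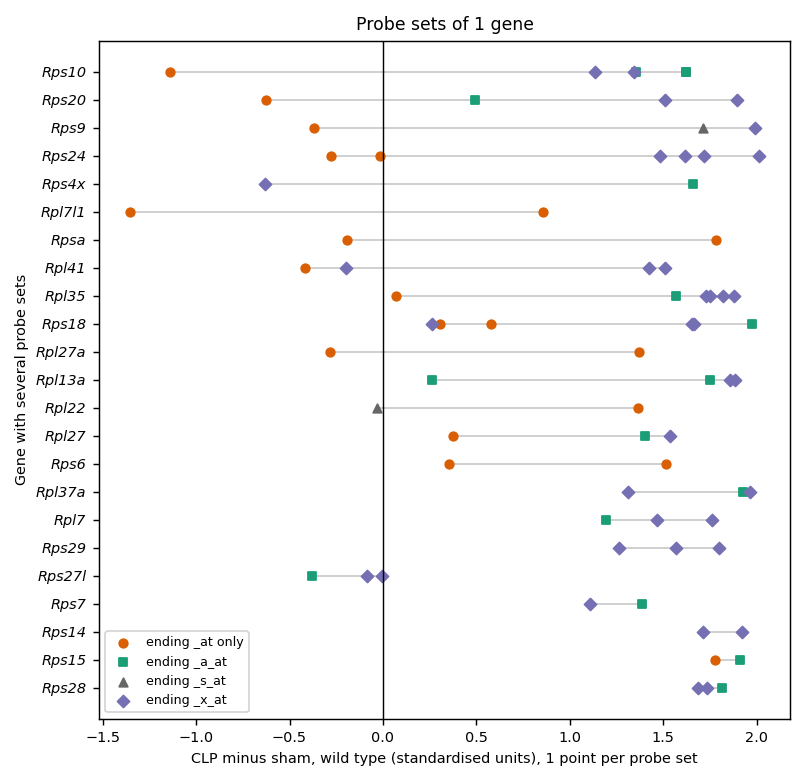
Septic minus sham difference in wild-type hearts (standardised units) of each probe set of the 23 members that have several, 1 gene per row, with the probe set type as symbol and colour. Plain probe sets spread on both sides of 0, and those of types _a_at and _x_at lie mostly between 1 and 2.

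The other parts of the translation machinery were counted from lists chosen with earlier results known. Of 42 translation factors, 1 rose and 0 fell, 31 lay above 0 and the median was 0.69. At an unadjusted p under 0.05, 14 were higher and 3 lower, where 9.23% of all genes were higher and 9.38% lower, with 50.8% above 0. The call was Fau, which encodes the small-subunit protein S30 fused to a ubiquitin-like domain, although its symbol puts it outside the members. Fau stood at -1.83, -0.76 and -1.35 in sham, 0.60, 0.57 and 0.56 in Min Dep and 0.42, 0.69 and 1.18 in Max Dep arrays. Septic arrays all lay above sham and the septic groups overlapped, with a difference of 1.98 ± 0.27 (limma, adjusted p = 0.0498). Eif3k (1.81), Eef2, the translocation factor (1.54), and Tpt1, whose mRNA carries the same pyrimidine tract (1.30), lay above 0 without passing. Eif5a, an elongation factor (-0.96), and the initiation factor gene Eif1ax (-0.73) had the smallest p-values below 0, without passing. Eef1a1, the factor that brings tRNA to the ribosome, was at -0.53 and Pabpc1, which binds poly(A) tails, at 0.48.

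Of 54 ribosome biogenesis genes 0 were called, 5 were higher and 0 lower at an unadjusted p under 0.05, and 29 lay above 0, with a median of 0.04 (limma). Of all genes, 9.23% were higher and 9.38% lower at that p, and 50.8% lay above 0. These shares stand beside the other wild-type CLP counts of this paragraph too. Lyar (1.78 ± 0.32) and the nucleolar GTPase gene Gnl3 (1.84 ± 0.40) had the smallest p-values above 0 and Pes1 (-0.51) and Ddx21 (-0.56) below, while the nucleolar proteins Npm1 (-0.33), Ncl (0.48) and Fbl (-0.40) lay near 0. Of 34 genes of growth signalling to the ribosome 0 were called, 2 were higher and 2 lower at an unadjusted p under 0.05, and 13 lay above 0, with a median of -0.26 (limma). Tsc1 (0.94) and Tsc2 (1.38), which restrain mTOR, had the smallest p-values above 0, and the kinase gene Akt1 (-1.53) and Mdm2 (-1.18) below. Mtor was at -0.43, Eif4ebp1 at 0.82, Larp1 at 1.47 and Myc at -0.96. The 74 mitochondrial ribosomal proteins, a list added after member values had been seen, had a median of -0.52 with 24 above 0 and 1 called higher, Mrps24 (1.86 ± 0.15; limma, adjusted p = 0.0276). At an unadjusted p under 0.05, 5 were higher and 13 lower (limma); after Mrps24, Mrps15 (1.61) had the smallest p above 0, and Mrps11 (-0.94) and Mrps31 (-1.69) had the smallest below. In Min Dep hearts their median was -0.77 and in Max Dep hearts 0.02, and 62 of 74 were higher in Max Dep than in Min Dep hearts, against 46.7% of all genes.

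**Figure D4:**
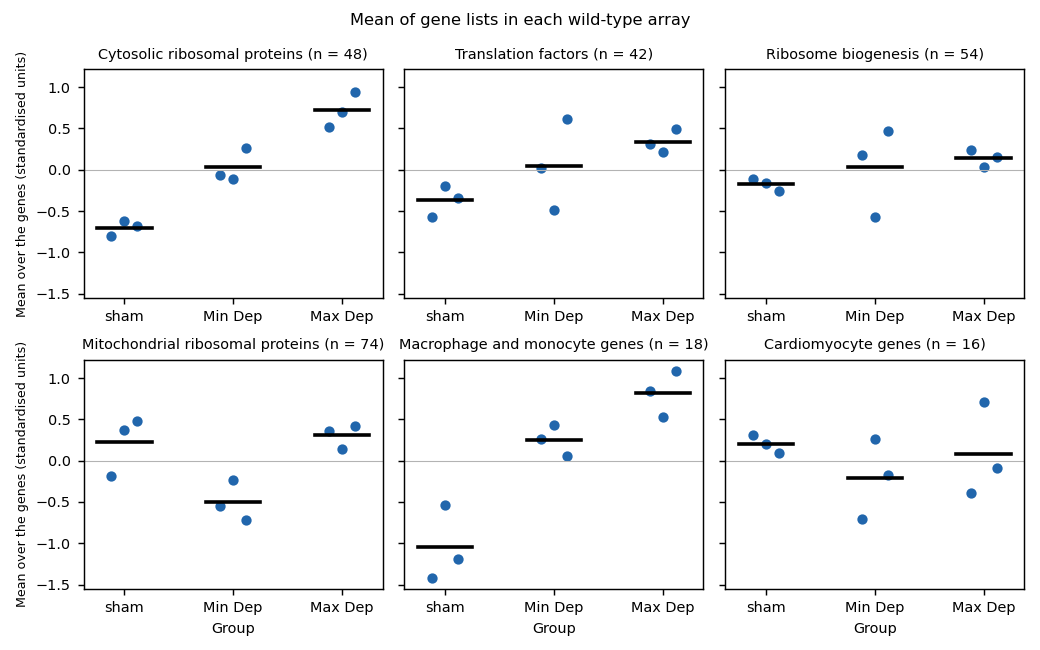
Mean standardised value per wild-type array of 6 gene lists; points are arrays, in their groups, and bars the group means. The member mean is below -0.6 in each sham array and above 0.5 in each Max Dep array, and the biogenesis mean stays between -0.57 and 0.47.

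A whole heart is a mixture, and in such bulk samples more cells of a type cannot be told apart from more RNA per cell. Macrophage and neutrophil markers moved with the members. All 18 macrophage and monocyte markers lay above 0 after CLP in wild type, 2 of them called higher, and their mean was -1.42 to -0.53 in sham, 0.06 to 0.43 in Min Dep and 0.53 to 1.09 in Max Dep arrays. Of 12 neutrophil markers 10 lay above 0 and 2 were called; their mean was -0.94 to -0.55 in sham, -0.08 to 0.68 in Min Dep and 0.18 to 0.87 in Max Dep arrays. Medians were -0.09 for 8 B cell, -0.22 for 12 T and NK cell, -0.09 for 5 erythroid, -1.53 for 12 fibroblast, 0.91 for 12 endothelial and -0.18 for 16 cardiomyocyte markers. All 16 cardiomyocyte markers were on the arrays, but standardised values give no level, so neither the tissue label nor a marker near its background could be checked. The part of these cells in the member differences was not tested.

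The array controls gave another value that moved with the groups. The 5′ minus 3′ difference of the Gapdh and Actb control probe sets is usually read for how far labelling reached along the RNA. Here it was taken from standardised scores, so its size gives no degree of labelling. It was 0.55, 0.39 and 1.76 in sham, 0.07, -0.08 and -0.56 in Min Dep and -0.81, 0.53 and -1.85 in Max Dep arrays. Max Dep replicate 2 lay among the sham arrays. With it as a covariate the median member difference was 1.07 instead of 1.33 and 0 members were called (limma, adjusted). With that covariate Rpl6 was at 2.06, with an adjusted p of 0.129 (limma).

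The same comparison in mice lacking Nos2 used 3 sham and 2 CLP arrays. Members again lay mostly above 0, but none passed the test. The member mean was -0.22, -0.62 and 0.07 in sham and 0.59 and 0.02 in CLP arrays 2 and 3, with 0.21 in CLP array 1, so that sham replicate 3 lay above CLP replicate 3 and the groups overlapped. Differences above 0 were found in 41 of 48 members (85.4%, against 51.5% of all genes), with a median of 0.69 on the log scale against 0.03. No member was called and 0% of all genes were (limma with eBayes, adjusted), with 4 higher at an unadjusted p under 0.05 (8.33%, against 5.83% of all genes) and 1 lower (2.08%, against 6.08%). In 17 members (35.4%, against 15% of all genes) both CLP arrays lay above all sham arrays, and in 2, Rps27 and Rps4l, below (4.17%, against 14%). With CLP replicate 1 included the median was 0.64 and 0 members were called, although 295 genes were. Leaving out 1 array moved the median from 0.33, without CLP replicate 2, to 1.01, without CLP replicate 3.

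Rpl7l1 had the smallest p in the knockout. It stood at -0.28, -0.19 and -0.99 in sham and at 1.06 and 1.47 in CLP arrays, with 0.88 in the array left out, and no CLP array overlapped with sham. The difference was 1.76 ± 0.46 (limma, adjusted p = 0.206). Rpl37 stood at 0.02, -0.59 and -0.11 in sham and 1.53 and 0.69 in CLP arrays (1.34 ± 0.48), and Rps3 at -0.66, -0.81 and -0.05 in sham and 1.15 and 0.46 in CLP arrays (1.31 ± 0.48). Both had all CLP arrays above sham. Rpl22l1 followed at 1.07 ± 0.43. Rps27 ran the other way, at 0.64, 0.00 and 0.36 in sham and -1.79 and -0.67 in CLP arrays, with -0.92 in the array left out. Its difference was -1.57 ± 0.51 (limma, adjusted p = 0.294).

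The 4 members called in wild type were less clearly apart here. Rpl6 stood at -1.05, -0.86 and 0.07 in sham and 0.00 and 0.06 in CLP arrays, where the third sham array was level with the CLP arrays, and its difference was 0.64 ± 0.50. Rpl4 stood at -0.89, -1.10 and 0.40 in sham and 0.05 and 0.00 in CLP arrays (0.55 ± 0.57), again with sham replicate 3 highest. Rpl35 stood at 0.14, -1.11 and -0.23 in sham and 1.18 and 0.26 in CLP arrays, which did not overlap (1.12 ± 0.56). Rps28 stood at 0.33, -1.47 and 0.19 in sham and 0.81 and -1.25 in CLP arrays (0.10 ± 0.83), which overlapped widely. The gene mean hides disagreement in Rps6, whose probe sets differed by 2.84 and -3.06 in the knockout.

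**Figure D5:**
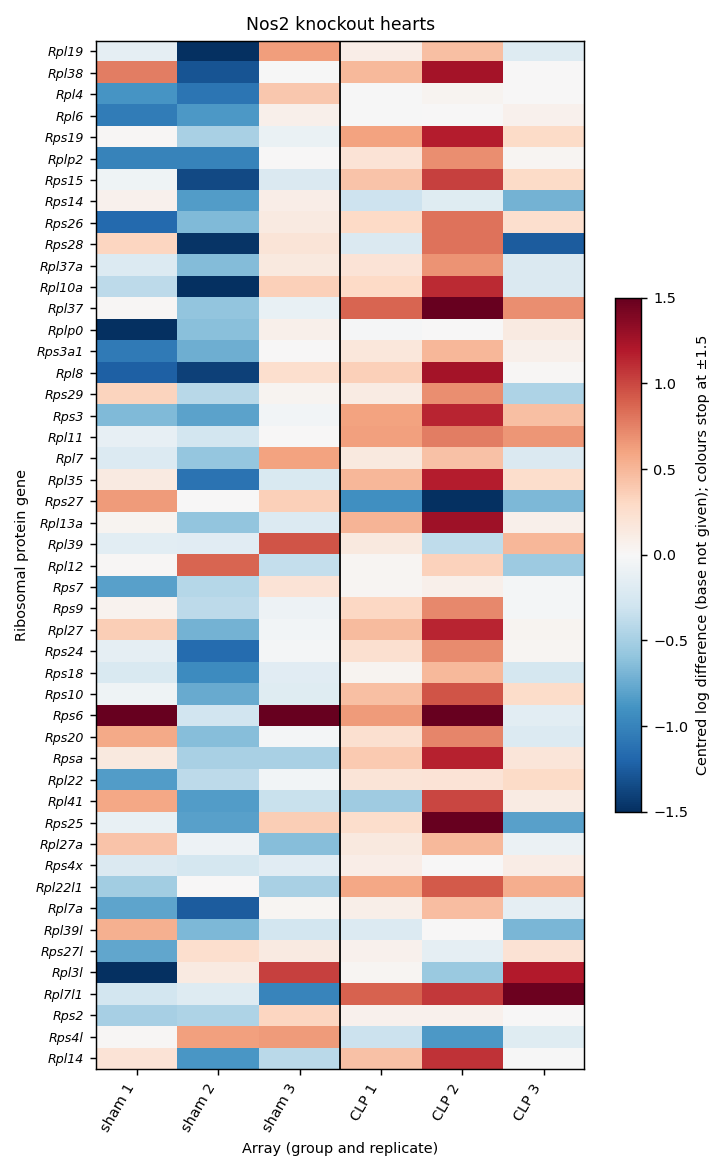
Centred value of each of the 48 members (rows) in the 6 knockout arrays (columns, by group), on the deposited log scale, as colour that stops at ±1.5. Sham replicate 2 is low in most members and CLP replicate 2 is high, and sham replicate 3 and CLP replicate 3 are near each other. Of the 7 members with a CLP minus sham difference below 0, only Rps27 and Rps4l have both tested CLP arrays below all sham arrays. CLP replicate 1 was left out of the test.

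Side by side, 36 members (75%) lay above 0 in both genotypes, against 28.7% of all genes. Another 6 did so in wild type only, 5 in the knockout only and 1, Rps4l, in neither. The 6 were Rpl12, Rpl39, Rpl39l, Rps6, Rps14 and Rps27, and the 5 were Rpl14, Rpl3l, Rpl7l1, Rps2 and Rps27l. None of these differences between genotypes was tested, since units, tables and array models differ. The spread of members over the 5 knockout arrays, a median SD of 0.66, was close to the 0.65 of all genes. The median pair correlation was 0.55 in the knockout, with 77.9% of pairs above 0, and Rps4l (-0.78) and Rps27 (-0.74) ran furthest against the mean of the other members. In the knockout 16 of 18 macrophage and monocyte markers lay above 0, and their mean was -0.68 to 0.06 in sham and 1.41 to 2.35 in CLP arrays, CLP replicate 1 included. Of 12 neutrophil markers 11 lay above 0, with a median of 1.94 and means of -0.46 to -0.10 in sham and 1.18 to 2.48 in CLP arrays. Endothelial markers had the largest shift of these lists. In wild type, in other units, they were split around their median of 0.91. There 8 of 12 lay above 0, with 4 higher and 1 lower at an unadjusted p under 0.05 (limma). In the knockout 1 of 12 lay above 0, 8 were lower at an unadjusted p under 0.05 (limma), and the median was -2.91. Their means were 0.44 to 2.08 in knockout sham and -2.21 to -0.35 in knockout CLP arrays. Of 12 fibroblast markers in the knockout, 2 lay above 0 and 6 were lower at an unadjusted p under 0.05 (limma), with a median of -1.45. Their means were 0.18 to 0.83 in sham and -1.50 to -0.46 in CLP arrays. No marker of these 4 lists passed the adjusted threshold in the knockout (limma). There the 5′ minus 3′ difference was -1.97, 0.21 and 0.98 in sham and -1.07, -2.06 and -0.78 in CLP arrays. With it as a covariate the median member difference was 0.57 instead of 0.69, 38 members lay above 0 instead of 41 and 0 were called (limma, adjusted). The part of the cell types in the result was not tested.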

How the data were processed

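Total RNA of 15 whole hearts was measured on short oligonucleotide arrays. The authors deposited 2 tables of scores for 22690 probe sets; the software was not given in the sources used here. Tested on the table, the deposited wild-type score is standardised, and the deposited knockout score behaves as a centred log difference. Without intensities, dim probe sets could not be filtered, and precision is limited by the number of arrays.

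After 64 control probe sets were left out, 20380 probe sets paired with 1 gene were averaged to 12393 genes. Groups were compared with limma 3.58.1 in R 4.3.3, with Benjamini-Hochberg adjustment over all genes and a threshold of 0.05. The wild-type fit held all 9 arrays (3 groups, unmoderated statistics on 6 residual degrees of freedom, since rows scaled to equal SD make moderation unsuitable); the knockout fit held 5 arrays, with eBayes on 3 residual degrees of freedom. The scripts were tested on simulated data. Replicate numbers only name arrays and pair none.

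The members and lists were chosen with earlier results of these data known, and the mitochondrial ribosomal protein list was added later. Named members were those past the threshold and the 6 of smallest p per direction and comparison, which took in Rpl14, Rps2, Rpl27 and Rps3a1. Stalk proteins, Rpsa, paralogs with their parents and members with a known role (Rps6, Rpl11, Rps19) were named too. Others, in counts or examples, were named after their values were seen. From the translation, biogenesis, signalling and mitochondrial lists, the 2 genes of smallest p in each direction in wild-type CLP and a fixed set (Mtor, Eif4ebp1, Larp1, Myc, Eef1a1, Eef2, Tpt1, Pabpc1, Npm1, Ncl, Fbl) were named; cell type lists are given by counts. Alternatives tried were eBayes, single probe sets, their median, leaving out types _x_at and _s_at, undoing the array step, centring, a 5′ minus 3′ covariate, fewer arrays and leaving out each array.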

Additional observations from a re-analysis of the deposited data

Results flagged for a closer look

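Rps27l, the p53-responsive paralog of Rps27, differed in direction between the wild-type septic groups. Every Min Dep array lay below and every Max Dep array above the sham mean, with a Max Dep minus Min Dep difference of 1.71 ± 0.54 (limma, adjusted p = 0.443), which did not pass the threshold. Rps27 differed in direction between the genotypes: its knockout CLP minus sham difference was -1.57 ± 0.51, with all CLP arrays below sham, whereas in wild type it was 1.45 ± 0.67 (SE). The difference between the genotypes was not tested.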

How the results depend on the processing

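No paired analysis was possible because the labels number no replicates; the numbers used here only follow the order of deposit and pair no arrays. The direction of the member median held under every alternative run in all 5 comparisons, while the calls did not. None of these alternatives used the plain member probe sets alone. Over those the median was -0.18 for Max Dep against Min Dep, with 14 of 30 above 0. For Max Dep against sham it was 0.04, with 16 of 30 above 0. For wild-type CLP against sham (89 genes and 4 members called, median 1.33), genes and members called were 0 and 0 with eBayes, 513 and 13 with every probe set tested, 179 and 8 with the array standardisation undone, and 1 and 0 with the 5′ minus 3′ covariate (median 1.07); without types _x_at and _s_at 2 members were called. For Max Dep against sham (56 and 3, median 1.41) they were 0 and 0 with eBayes, 220 and 9 with every probe set (median 1.99), 33 and 1 without types _x_at and _s_at, 0 and 0 with the covariate, and 7 and 0 with only the 6 arrays compared; the median of probe sets called 1 member. For Min Dep against sham (7 and 0, median 0.95) the genes called were 0 with eBayes, 112 with every probe set, 4 with the median of probe sets, 18 without types _x_at and _s_at, 27 with the standardisation undone (1 member, Rpl35), 4 with centred arrays, 2 with the covariate (median 0.74) and 1 with only 6 arrays. For Max Dep against Min Dep (0 genes, median 0.73) undoing the standardisation called 2 genes, with a median of 0.44. For the knockout (0 genes, median 0.69) all 6 arrays called 295 genes and 0 members. In the 3 comparisons with 0 members called, eBayes (for the knockout, unmoderated statistics) also called 0. The cause of these changes was not tested; testing every probe set changes the number of tests.

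Leaving out 1 array at a time gave 0 to 186 genes, 0 to 6 members and medians of 1.19 to 1.42 for wild-type CLP, 0 to 26 genes, 0 to 1 members and 1.34 to 1.78 for Max Dep, 0 to 68 genes, 0 members and 0.77 to 1.09 for Min Dep, 0 to 1 genes, 0 members and 0.56 to 0.98 for Max Dep against Min Dep, and 0 genes, 0 members and 0.33 to 1.01 for the knockout. Among the named members' own values, 2322 kept direction and side of the threshold, 84 lost a call, 11 gained one and 79 uncalled values changed sign or moved. None that was called reversed. Nearly all of the 2322 were values not called in the main fit that stayed uncalled. All 84 losses fell on the 4 calls for wild-type CLP and the 3 for Max Dep. Leaving out some arrays cannot change a difference, such as a sham array for Max Dep against Min Dep. Without intensities, how far signal over background limits each value cannot be given.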
